A study of Drosophila melanogaster with 12 samples.

Results

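The genes described here are the nuclear genes for the proteins of the mitochondrial ribosome in the fruit fly Drosophila melanogaster. They were taken by their FlyBase symbol, as every gene row whose symbol begins with mRpL or mRpS and a number, which gave 73 genes among the 17895 gene rows of the count table. By symbol, 47 belong to the large subunit (mRpL) and 26 to the small subunit (mRpS). Total RNA depleted of ribosomal RNA was sequenced from single heads of female flies that were 21 days old. The study varied the genotype, labelled SIRT6 KO or w1118 (a white-eyed laboratory strain), and the food, which from eclosion held dimethyl sulfoxide (DMSO) or 100 µM of 680C91 dissolved in it. 680C91 inhibits TDO2, which opens the ring of tryptophan in the kynurenine pathway. This gives 4 groups of 3 libraries: labelled KO with DMSO, labelled KO with inhibitor, w1118 with DMSO and w1118 with inhibitor. How the knockout was made, and whether w1118 is its genetic background, is not given in the sources used here.

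Mitochondria carry their own ribosome, which translates the few messages of the mitochondrial genome, all of them for subunits of the respiratory chain and ATP synthase. Its RNAs come from the mitochondrial genome, while all of its proteins are encoded in the nucleus, made in the cytoplasm and imported. Most of its core proteins have counterparts in the bacterial ribosome, and others are found in mitochondria only. In flies, loss of function of such genes is known to cause developmental delay, small body size and seizure-like behaviour, as in mutants of tko, the gene for mitochondrial ribosomal protein S12.

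Libraries held 24633705 to 44545859 estimated counts, and all 73 genes were among the genes with enough counts to test. Levels in CPM are counts divided by the library size, with sizes adjusted by TMM, the trimmed mean of log ratios between libraries. Sirt6, the gene named in the genotype label, lay at 1.95 to 2.50 CPM in the 6 KO-labelled libraries and at 1.37 to 2.71 CPM in w1118, a log2 difference of -0.01 (SE 0.13, edgeR adjusted p = 0.971), so the transcript was not lost, and directions below follow the labels. Replicate 2 of w1118 with DMSO and replicate 2 of w1118 with inhibitor stood apart, with TMM factors of 1.37 and 1.18 against 0.786 to 1.09 in the other 10. Summed over 7 fat body markers, these 2 libraries held 3730 and 22541 CPM, the other 4 of w1118 226292 to 299980 CPM, and the 6 labelled KO 104942 to 155243 CPM, and 0 of the 7 passed the test between the genotypes. Summed over 8 photoreceptor markers, KO-labelled libraries held 30273 to 40245 CPM and w1118 22353 to 38319 CPM, and trpl, inaC and Arr2 passed the test as higher. The markers of neurons (nSyb higher), glia (alrm lower), haemocytes (He lower), muscle (bt higher) and of germline and ovary (vas higher, with a summed level of 1.26 to 3.12 CPM) each had 1 gene past the test between the genotypes. The median log2 difference between the genotypes was -0.77 for fat body markers, 0.38 for photoreceptors, 0.22 for neurons, -0.22 for glia and -1.10 for haemocytes. It was -0.07 for muscle and -0.10 for germline and ovary, opposite in sign to bt and vas. No listed marker found in the table was at 0 in all libraries, and the part of tissue composition in the results was not tested. In RNA from whole heads, fewer cells of a type and less RNA per cell cannot be told apart.

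The genes were spread over the genome, with 11 on chromosome X, 12 on 2L, 12 on 2R, 17 on 3L and 21 on 3R. In the annotation of BDGP6.54, exons of 43 of the 73 overlap exons of another gene, 42 of them on the opposite strand and 3 on the same strand (mRpL13, mRpL53 and mRpS14). The overlap covers over 50% of the exon length in 2 genes, mRpL53 at 100% and mRpS24 at 55.3%. Whether the counting used strand is not given in the sources used here, so counts of overlapping genes may be shared between partners.

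Per kilobase of exon, most of these genes were within a narrow range. The median of their mean levels over the 12 libraries was 9.09 CPM per kb, with quartiles of 7.17 and 11.8, and the medians of the large and the small subunit were 8.78 and 9.69 CPM per kb. One gene stood above 30 CPM per kb: mRpS5, which in bacteria lies at the entry channel of the messenger RNA, averaged 47.3 CPM per kb ± 7.67 (SD, n = 12) and ranged from 32.6 to 60.8. Next in order were mRpS9, whose bacterial counterpart reaches to the peptidyl-site tRNA, at 25.5, the large subunit protein gene mRpL28 at 24.6, mRpL12 at 22.5 and mRpL30 at 16.7 CPM per kb. The ranges of mRpS9, mRpL28 and mRpL30 over libraries overlapped their neighbours in this order, so their ranks are not distinguished by the spread. At the low end stood mRpS18C, 1 of 3 genes whose symbols begin with mRpS18, at 5.31 CPM per kb. Below it were mRpL32 at 5.19, mRpL11 (at the base of the factor-binding stalk) at 5.03, mRpL21 at 4.31 and mRpL34 at 4.06 CPM per kb.

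**Figure D1:**
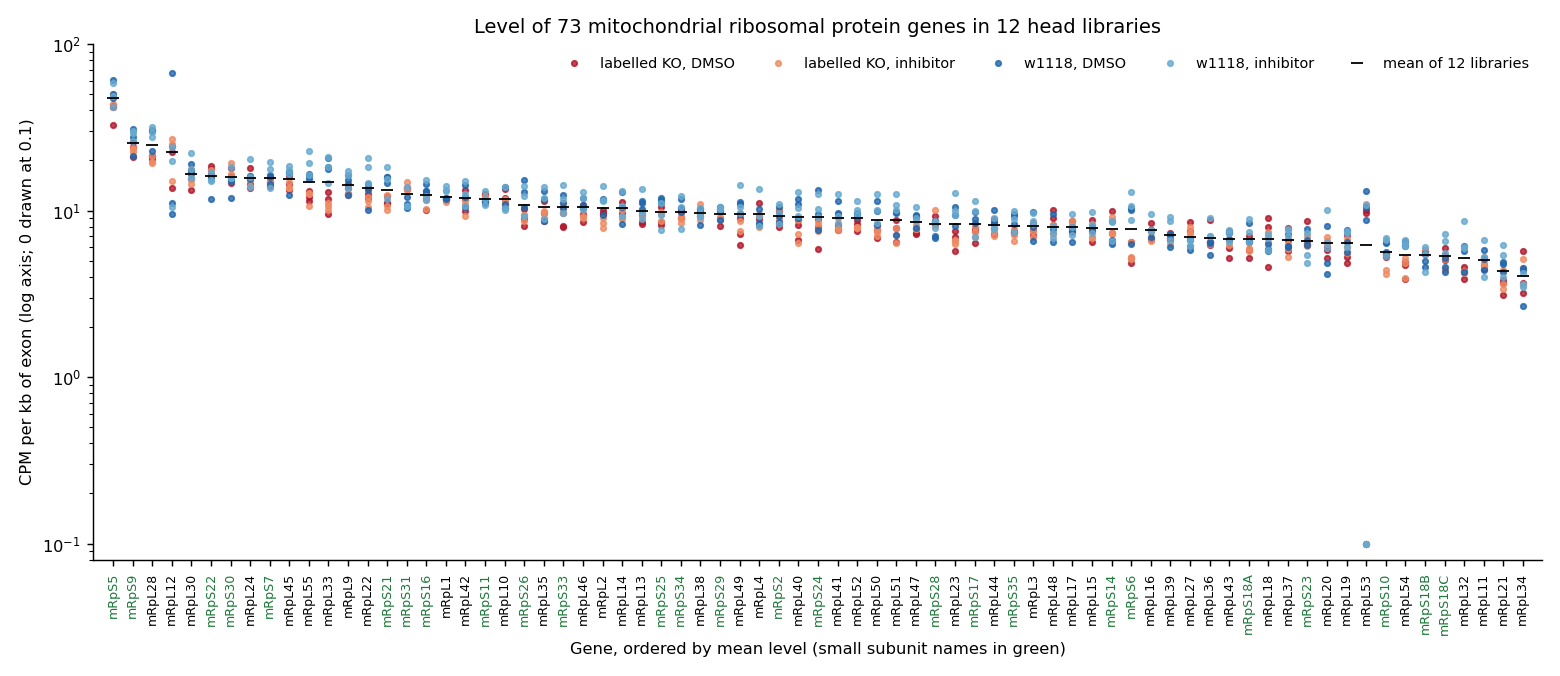
Level of each of the 73 genes in CPM per kb of exon on a log axis, 1 point per library coloured by group and a dash for the mean of 12 libraries, ordered by mean. mRpS5 leads at 47.3 CPM per kb, most genes lie near the median of 9.09, and mRpL12 and mRpL53 hold the points far from the rest of their gene.

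Most of the genes varied little between flies of a group, in a comparison with all genes that was not matched for level. The standard deviation of log2 CPM within groups had a median of 0.17 over the 73 genes, against 0.30 over all genes tested. It was lowest for mRpL1 (0.03), the gene of the protein that forms the movable stalk where spent tRNAs leave, then mRpS11 (0.08) and mRpL52 (0.09). It was highest for mRpL53 (3.68), mRpL12 (0.90) and mRpL34 (0.33). The first 2 of these 3 are described next.

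mRpL12 (FBgn0011787, 3L from 8956791 to 8957584, plus strand) encodes the stalk protein that recruits translation factors. It was at 16.6, 10.1 and 17.9 CPM in the KO-labelled libraries with DMSO, at 11.1, 18.5 and 19.8 CPM with inhibitor, at 8.17, 49.5 and 7.04 CPM in w1118 with DMSO and at 17.8, 7.77 and 14.6 CPM in w1118 with inhibitor. The highest value belongs to replicate 2 of w1118 with DMSO, 1 of the libraries that stand apart, while the other 2 of that group were among the 3 lowest. Its genotype difference with DMSO was -0.54 on the log2 scale (SE 0.67, edgeR adjusted p = 0.742) and became 1.05 (adjusted p = 0.0485) when both libraries that stand apart were left out.

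mRpL53 (FBgn0050481, 2R from 13954195 to 13955664, plus strand) lies wholly inside exons of CG33155 on the same strand, and its exons also overlap AGO1 on the opposite strand. It had 0 counts in 5 libraries, replicate 1 of the group labelled KO with DMSO, replicates 2 and 3 of that with inhibitor, and replicates 2 and 3 of w1118 with inhibitor. A count of 0 allows at most 3 counts, for counting error only. By library totals of gene counts, without TMM, that is 0.0703 to 0.126 CPM over the libraries. The other 7 libraries held 241 to 411 counts, or 7.31 to 10.9 CPM. CG33155 was at 20.5 to 27.7 CPM in the 5 libraries where mRpL53 was at 0 and at 10.4 to 15.3 CPM in the other 7. Summed, the pair was at 20.5 to 27.7 CPM in the former and 19.4 to 23.6 CPM in the latter. The zeros thus went with higher estimates for CG33155, in libraries of 3 of the 4 groups, and no difference between groups is read from mRpL53. Outside this gene the lowest count of any of the 73 genes in any library was 33.

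**Figure D2:**
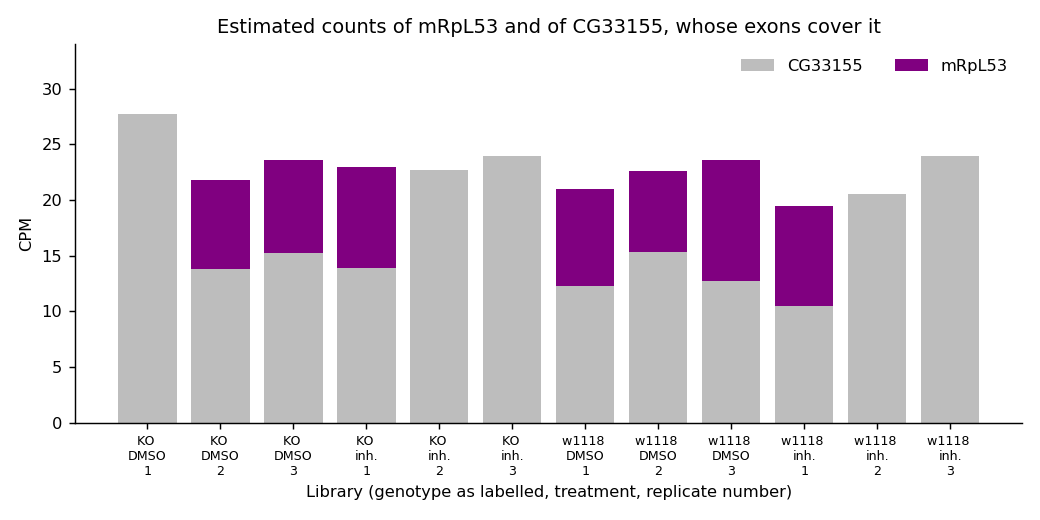
Stacked CPM of CG33155 (grey) and mRpL53 (purple) in each of the 12 libraries, named by labelled genotype, treatment and replicate number. In the 5 libraries with no purple bar CG33155 stands at 20.5 to 27.7 CPM, and the summed height is 19.4 to 23.6 CPM in the other 7.

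Summed over the 73 genes, the level was 725, 647 and 662 CPM in the KO-labelled libraries with DMSO and 681, 666 and 691 CPM in those with inhibitor. It was 757, 741 and 762 CPM in w1118 with DMSO and 751, 715 and 882 CPM in w1118 with inhibitor. Under each treatment taken alone KO-labelled libraries lay below those of w1118 under TMM. Over both treatments 1 KO-labelled library (725 CPM) overlapped 1 of w1118 (715 CPM). The sums include mRpL12, which held 49.5 of the 741 CPM in w1118 with DMSO and 16.6 of the 725 CPM in the group labelled KO with DMSO. Without mRpL12 this w1118 library would lie below this KO-labelled one, so the order with DMSO rested on that gene. The order also depended on the scaling. With sizes set by the median of ratios, 1 KO-labelled library with DMSO was at 736 CPM, above 1 of w1118 with DMSO at 726 CPM. Scaled by each library's total of gene counts alone, the 6 KO-labelled libraries lay at 686 to 744 CPM, inside the range of w1118 at 595 to 1017 CPM, where the 2 libraries that stand apart held the highest values, 1017 and 840 CPM. Directions below are those under TMM.

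Over both treatments, 11 of the 73 genes were lower in KO-labelled libraries than in w1118 and 0 were higher. With scaling by total counts and both libraries that stand apart left out, 3 of these 11 were still called lower. In that alternative, given further on, 12 other genes of the 73 were called higher. The test was edgeR's quasi-likelihood test at a Benjamini-Hochberg adjusted p under 0.05. Of all genes tested, 11.1% passed over both treatments under TMM with all libraries, 5.78% as lower and 5.33% as higher, against 15.1% of the 73 as lower. Without adjustment, 31 of the 73 had p under 0.05, 29 of them lower, against 26.9% of all genes in either direction. The estimate was below 0 for 58 of the 73, against 60.1% of all genes, and above 0 for 15, against 39.9%. The median was -0.18 on the log2 scale against -0.07. Of the 11, 9 encode large subunit proteins and 2 small subunit proteins.

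The largest of these differences was that of mRpS6 (FBgn0035534, 3L from 4364550 to 4365243, plus strand), the counterpart of bacterial small subunit protein S6. Its levels were 4.04, 3.27 and 3.06 CPM with DMSO and 3.19, 3.30 and 4.05 CPM with inhibitor in KO-labelled libraries, and 6.51, 3.93 and 6.35 CPM with DMSO and 6.69, 5.52 and 8.14 CPM with inhibitor in w1118. Only replicate 2 of w1118 with DMSO fell within the range of KO-labelled libraries. The log2 difference was -0.82 (SE 0.16, edgeR adjusted p = 0.0103), or 56.6% of the w1118 level.

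mRpL33 (FBgn0040907, X from 4321764 to 4322231, minus strand) is one of the shortest members at 349 bp of exon and encodes the counterpart of bacterial L33. It was at 4.10, 3.33 and 4.50 CPM with DMSO and 3.52, 3.85 and 3.72 CPM with inhibitor in KO-labelled libraries, against 7.23, 6.24 and 6.40 CPM and 6.34, 5.13 and 7.34 CPM in w1118. All 6 KO-labelled libraries were below all 6 of w1118. The log2 difference was -0.75 (SE 0.12, edgeR adjusted p = 0.00302), or 59.5% of the w1118 level.

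mRpL23 (FBgn0035335, 3L from 2372844 to 2373704, minus strand) encodes the counterpart of the bacterial protein at the mouth of the tunnel through which new chains leave the ribosome. It was at 5.27, 3.99 and 4.82 CPM with DMSO and 4.68, 4.38 and 4.58 CPM with inhibitor in KO-labelled libraries, and at 5.68, 7.37 and 6.62 CPM and 6.98, 6.56 and 8.92 CPM in w1118. The genotypes did not overlap, and the log2 difference was -0.60 (SE 0.12, edgeR adjusted p = 0.00944).

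mRpL55 (FBgn0038678, 3R from 19094394 to 19094905, minus strand) encodes a protein found in mitochondrial ribosomes only. Its levels were 5.99, 5.46 and 5.18 CPM with DMSO and 4.84, 5.72 and 5.83 CPM with inhibitor in KO-labelled libraries, and 7.05, 7.55 and 7.39 CPM and 7.45, 8.84 and 10.4 CPM in w1118. Again the genotypes did not overlap, and the highest value was in replicate 3 of w1118 with inhibitor. The log2 difference was -0.55 (SE 0.10, edgeR adjusted p = 0.00741).

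mRpL28 (FBgn0031660, 2L from 4973976 to 4975316, plus strand), the third in the order of levels, was at 24.9, 23.8 and 24.7 CPM with DMSO and 24.7, 22.7 and 23.0 CPM with inhibitor in KO-labelled libraries. In w1118 it was at 35.8, 26.6 and 35.2 CPM with DMSO and 34.8, 32.3 and 37.2 CPM with inhibitor. The KO-labelled libraries lay close together and below all of w1118, of which replicate 2 was the lowest under each treatment. The log2 difference was -0.49 (SE 0.08, edgeR adjusted p = 0.00436).

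The other 6 had larger adjusted p-values than these 5. mRpL32, whose product is trimmed by the mitochondrial m-AAA protease in yeast and mouse, differed by -0.51 (adjusted p = 0.0353), and mRpL40 by -0.48 (adjusted p = 0.0431). mRpL54 differed by -0.46 (adjusted p = 0.0192), with 2.64 to 3.54 CPM in KO-labelled libraries and 4.17 to 4.53 CPM in w1118, and mRpL50 by -0.43 (adjusted p = 0.0491). These 3 of the mRpL40 to mRpL55 range are, like mRpL55, without a bacterial counterpart. mRpS21 differed by -0.44 (adjusted p = 0.0348), with 48% of its exon length overlapped by CG8870 on the opposite strand. mRpL2, counterpart of a bacterial protein beside the peptidyl transferase centre, differed by -0.36 (adjusted p = 0.0316).

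**Figure D3:**
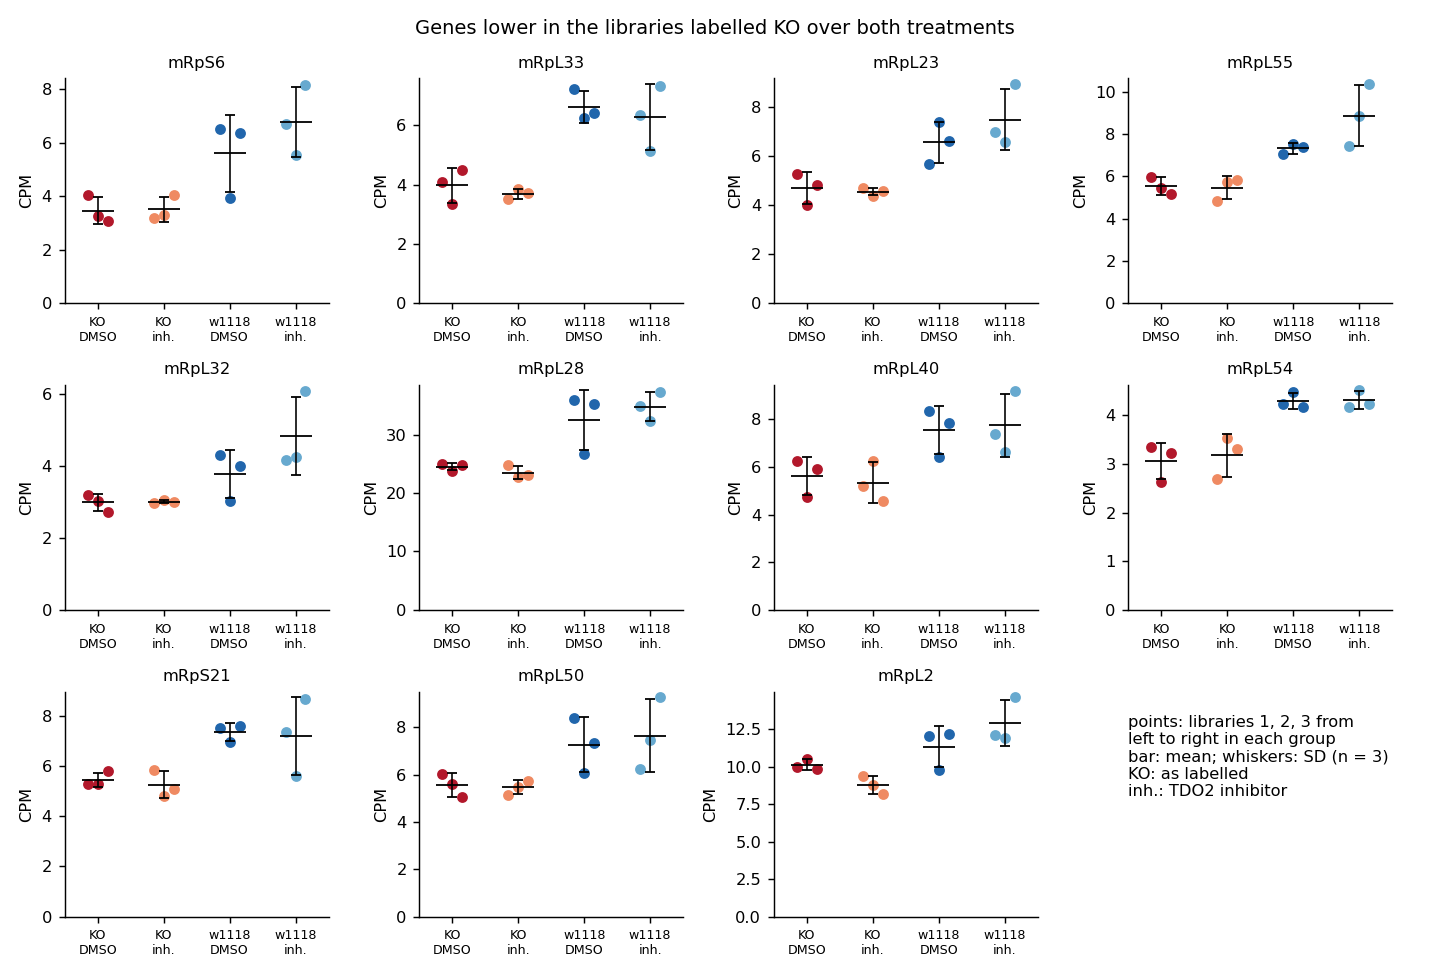
CPM of the 11 genes that were lower in KO-labelled libraries over both treatments, 1 panel per gene on axes from 0, with 3 libraries per group as points and the mean ± SD as bars. In mRpL23, mRpL28, mRpL33, mRpL40, mRpL50, mRpL54 and mRpL55 the 6 KO-labelled libraries lie below all 6 of w1118 under TMM.

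Counting genes whose 6 KO-labelled libraries lay wholly on one side of the 6 of w1118, 8 of the 73 lay lower (mRpL23, mRpL28, mRpL33, mRpL40, mRpL50, mRpL52, mRpL54 and mRpL55), against 3.97% of all genes, and 1 lay higher (mRpL27), against 3.79%. mRpL52 was at 4.20 to 4.90 CPM in KO-labelled libraries and at 5.13 to 6.32 CPM in w1118, and its difference of -0.29 (adjusted p = 0.0518) did not pass the threshold. The calls differed in how firmly they held. mRpS6 was called in all 21 alternative settings, with a highest adjusted p of 0.0435. mRpL28 and mRpL33 were called in 20 of the 21 and mRpL23 and mRpL55 in 19, each lost only where libraries were scaled by their total count. Under total-count scaling the highest adjusted p of these 4 was 0.281. The other 6 held in 5 to 9 of the 21, and in 1 to 3 of the 12 fits that each left out 1 library. In those 12 fits the number called was 18 without replicate 2 of w1118 with DMSO, 8 without replicate 2 of w1118 with inhibitor and 5 to 7 without any one of the other 10. With replicate 3 of w1118 with inhibitor left out, the median of the 73 was -0.10 and 5 were lower.

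With both libraries that stand apart left out, 17 of the 73 were lower and 2 higher over both treatments, of 29.1% of all genes called, and the median was -0.16 against 0.03 over all genes. The same libraries left out and the rest scaled by their total count gave 3 lower and 12 higher, with a median of 0.08 against 0.27 over all genes, of which 42.0% were called. The members' median was below that of all genes over both treatments in all 21 alternatives, by 0.06 to 0.19 (0.11 in the values given above), while its sign against 0 turned in that alternative, in which the median of all genes moved from -0.07 to 0.27.

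The genotype comparison was then read within each treatment, where the 2 comparisons share no library. With DMSO, 1 of the 73 passed, mRpL33 (-0.74, SE 0.16, edgeR adjusted p = 0.0365), of 4.1% of all genes called, 2.05% lower and 2.06% higher. With inhibitor 5 passed, all lower, of 3.41% of all genes called, 1.46% lower and 1.95% higher. These were mRpL33 (-0.76, SE 0.17, adjusted p = 0.0342), mRpL23 (-0.72, SE 0.16, adjusted p = 0.0437), mRpL55 (-0.70, SE 0.14, adjusted p = 0.0276), mRpL28 (-0.57, SE 0.12, adjusted p = 0.0264) and mRpL2 (-0.55, SE 0.13, adjusted p = 0.0463). None of these calls within a treatment held in all 22 alternatives: mRpL28 with inhibitor held in 13 and the others in 5 to 8. With DMSO, mRpL33 was no longer called without any one library labelled KO or without replicate 1 or 3 of w1118 with DMSO or replicate 1 of w1118 with inhibitor, and 3 genes were called without replicate 2 of w1118 with DMSO. With inhibitor, 0 were called without any one library labelled KO or without replicate 3 of w1118 with inhibitor, 1 or 2 without 4 other w1118 libraries, and 9 without replicate 2 of w1118 with DMSO. At an unadjusted p under 0.05, 18 of the 73 passed with DMSO, 14 of them lower, against 18.4% of all genes, and 22 passed with inhibitor, all lower, against 18.6%.

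The estimate was below 0 for 51 of the 73 with DMSO and above 0 for 22, against 58.6% and 41.4% of all genes. With inhibitor it was below 0 for 59 and above 0 for 14, against 56.6% and 43.3%. Medians were -0.16 and -0.23, against -0.07 and -0.06 over all genes, and with total-count scaling and both libraries that stand apart left out they were 0.14 and -0.01, against 0.28 and 0.26. Between the genotypes, 21 genes lay wholly lower and 5 wholly higher with DMSO, against 14% and 10% of all genes. With inhibitor 26 lay wholly lower and 1 wholly higher, against 15.2% and 12.5%. The estimate was below 0 under both treatments for 49 of the 73 genes, or 67.1%, against 42.3% of all genes, and across genes the 2 differences correlated with a Pearson r of 0.57 for the 73 and 0.28 for all genes (Spearman 0.57 and 0.46), as a description of genes that share libraries and scaling. With replicate 2 of the group labelled KO with DMSO left out, the median with DMSO was -0.03, against -0.04 over all genes. With replicate 3 of w1118 with inhibitor left out, that with inhibitor was -0.09, against -0.01.

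**Figure D4:**
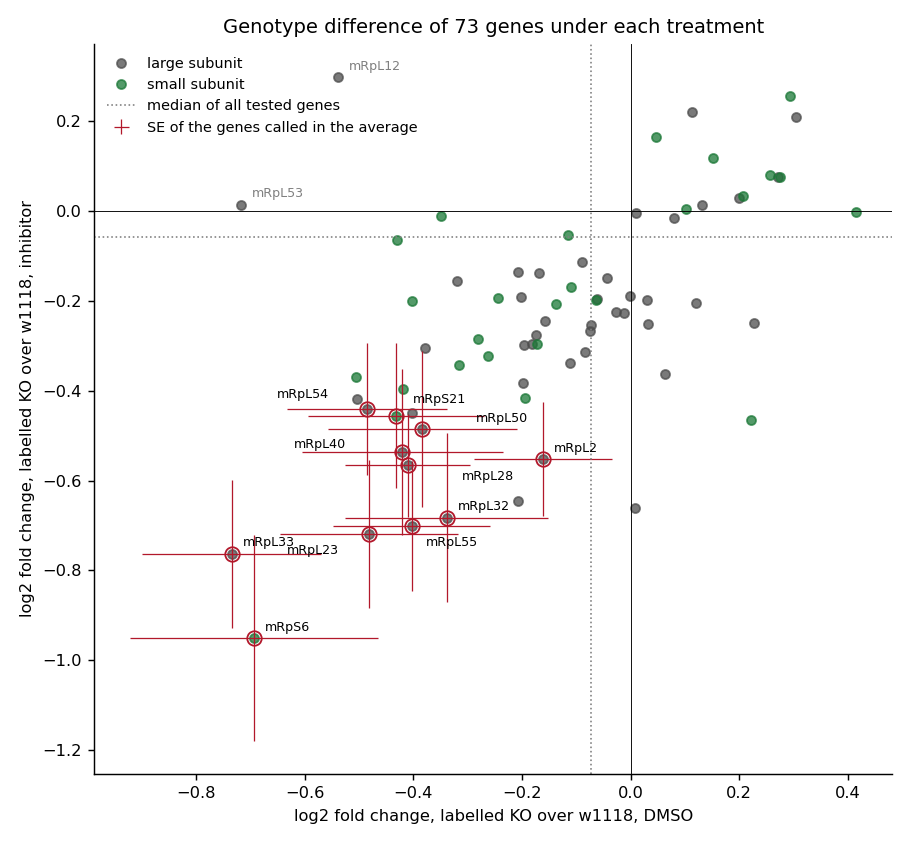
Log2 fold change of KO-labelled libraries over w1118 for each of the 73 genes, with DMSO (horizontal) and with inhibitor (vertical), large subunit in grey and small subunit in green, with dotted medians of all tested genes and SE bars on the 11 genes called over both treatments. These 11 lie in the lower left, mRpS6 and mRpL33 farthest, and 49 of the 73 lie below 0 on both axes under TMM, while the median over both treatments was 0.08 with total-count scaling and both libraries that stand apart left out.

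No gene of the set passed as higher. The highest estimates over both treatments were those of mRpS31 and mRpL27, named here after their values were seen. mRpS31 (FBgn0036557) was at 17.4, 17.2 and 17.4 CPM with DMSO and 17.7, 17.0 and 19.0 CPM with inhibitor in KO-labelled libraries, and at 13.2, 13.9 and 15.4 CPM and 13.7, 13.5 and 17.7 CPM in w1118. Its difference was 0.28 (SE 0.08, adjusted p = 0.0615). Its exons overlap those of mib1, the gene of a ubiquitin ligase, on the opposite strand over 3.76% of their length, and mib1 was higher by 0.49 (adjusted p = 0.0309). mRpL27 (FBgn0053002), whose bacterial counterpart reaches into the peptidyl transferase centre, was at 6.39 to 7.94 CPM in KO-labelled libraries and 5.37 to 6.23 CPM in w1118, without overlap. Its difference was 0.26 (SE 0.09, adjusted p = 0.0835). DESeq2, limma with voom, a stricter filter on low counts and the removal of both libraries that stand apart called both genes higher.

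The subunits and the origin of the proteins were set side by side as counts, with no test between them. Of the 47 large subunit genes, 9 were lower over both treatments and 40 had an estimate below 0 (median -0.20). Of the 26 small subunit genes, 2 were lower and 18 had an estimate below 0 (median -0.18). Called lower were 19.1% of the large and 7.69% of the small subunit genes, against 5.78% of all genes tested. Of all genes, 60.1% had an estimate below 0, and the median was -0.07. In mammalian structures the products of 2 genes counted here as small subunit by symbol, mRpS18A and mRpS30, sit in the large subunit, and neither was among the 11. Of the 45 genes with a bacterial counterpart, 7 were lower (mRpL2, mRpL23, mRpL28, mRpL32, mRpL33, mRpS6 and mRpS21) with a median of -0.16. Of the 28 found in mitochondria only, 4 were lower (mRpL40, mRpL50, mRpL54 and mRpL55) with a median of -0.19. By chromosome, the 11 comprised 4 genes on 3L, 4 on 3R and 1 each on X, 2L and 2R, and the members' median ran from -0.06 on 2L to -0.25 on 3L, against -0.05 to -0.09 over all tested genes of those chromosomes.

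Most of these genes are short, and the genotype difference moved with length. For the 23 genes with under 700 bp of exon the median difference over both treatments was -0.29, against -0.20 for the 847 other protein-coding genes of that length, and 6 were lower, against 7.08% of the others. For the 28 genes from 700 bp to under 1000 bp the medians were -0.17 and -0.17, and 3 were lower, against 7.35%. For the 22 longer ones the medians were -0.14 and -0.06, and 2 were lower, against 5.56%. The correlation of the difference with log2 exon length was 0.27 across the 73 genes and 0.10 across protein-coding genes, a description across genes of the same libraries. The part of length in the difference was not tested further.

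**Figure D5:**
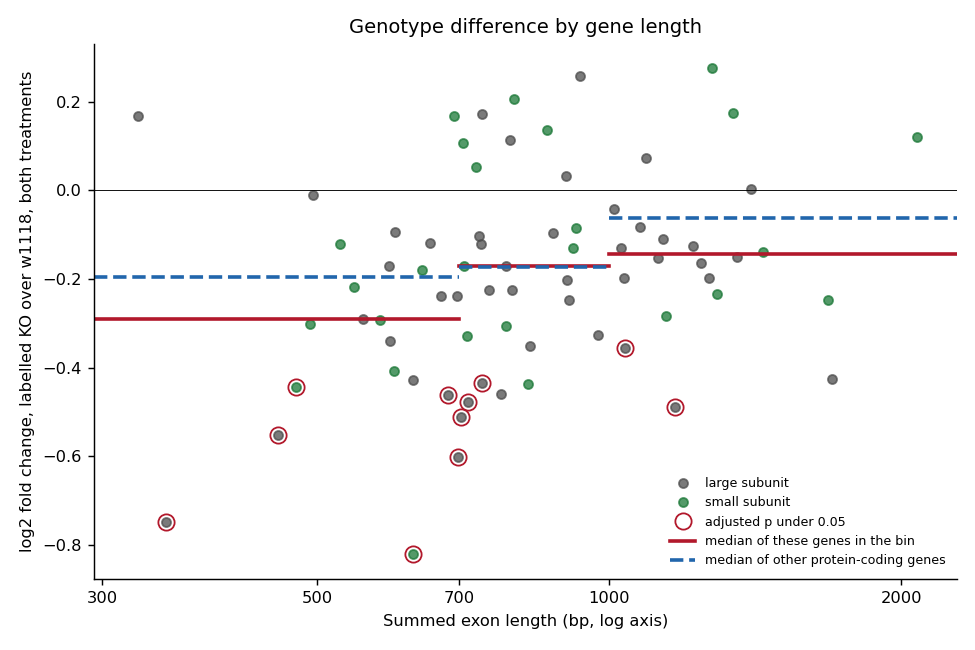
Log2 fold change of KO-labelled libraries over w1118, both treatments, against summed exon length in bp on a log axis for the 73 genes (grey large, green small subunit, ringed where adjusted p is under 0.05), with the median of these genes (red) and of other protein-coding genes (blue dashes) in 3 length bins. Below 700 bp the medians are -0.29 and -0.20, from 700 to 1000 bp both are -0.17, and above they are -0.14 and -0.06.

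Of the 11 genes, 6 overlap exons of a gene on the opposite strand, and none of those partners passed the test. Ufd1, the partner of mRpL2, differed by -0.25 (adjusted p = 0.0907), CG8870, that of mRpS21, by -0.23 (adjusted p = 0.505), and CG1750, that of mRpL32, by -0.13 (adjusted p = 0.584). CG8993, Gmd and Neos, the partners of mRpL23, mRpL28 and mRpL50, differed by -0.08, -0.05 and -0.03. The other 5 genes, mRpS6, mRpL33, mRpL40, mRpL54 and mRpL55, overlap no other annotated exon.

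None of the 73 genes passed the test for the inhibitor. In KO-labelled libraries, 0 passed by edgeR (of 0.00706% of all genes) and 0 had an unadjusted p under 0.05 (against 3.69%). The estimate was above 0 for 27 genes, against 48.7% of all genes, and below 0 for 46, against 51.3%, with a median of -0.02 against -0.0056 over all genes. The groups did not overlap for 3 genes that lay higher with inhibitor (mRpL20, mRpS5 and mRpS33), against 6.66% of all genes, and for 2 that lay lower (mRpL2 and mRpL48), against 6.36%. The smallest p belonged to mRpS5, at 70.5, 72.4 and 54.9 CPM with DMSO and 84.8, 72.9 and 82.4 CPM with inhibitor (0.28, SE 0.16, unadjusted p = 0.107), then mRpS33 (0.28) and mRpL48 (-0.27). In w1118, 0 passed by edgeR (of 0% of all genes) and 3 had an unadjusted p under 0.05, against 7.39%, all of them higher. These were mRpL22, whose bacterial counterpart lines the exit tunnel (0.50, SE 0.16), mRpS18C (0.45, SE 0.15) and mRpL1 (0.18, SE 0.08), with edgeR adjusted p of 0.555, 0.569 and 0.638. mRpL1 was at 14.6, 14.3 and 14.5 CPM with DMSO and 16.1, 16.0 and 17.1 CPM with inhibitor, and at 13.7 to 14.3 CPM in all 6 KO-labelled libraries.

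In w1118 the estimate for the inhibitor was above 0 for 55 of the 73 genes, against 48.2% of all genes, and below 0 for 18, against 51.8%, with a median of 0.08 against -0.01. The groups did not overlap for 6 genes that lay higher with inhibitor (mRpL1, mRpL22, mRpL36, mRpL51, mRpS18C and mRpS30), against 3.13% of all genes, and for 1 that lay lower (mRpS25), against 4.78%. The median rested on replicate 3 of w1118 with inhibitor, the library with the highest summed level at 882 CPM. Without it the median was -0.01. Averaged over genotypes, 0 passed (of 0.00706%), 0 had an unadjusted p under 0.05 (against 5.31%) and the median was 0.03 against -0.0089 over all genes. The estimate was above 0 for 53 genes, against 47.9% of all genes, and below 0 for 20, against 52.1%. The 3 smallest p belonged to mRpL20, mRpL1 and mRpS30. DESeq2 and limma with voom also called 0 of the 73 in each inhibitor comparison.

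Whether the inhibitor effect differed between genotypes was tested by the interaction. It passed for 0 of the 73 genes by edgeR (of 0% of all genes), and by DESeq2 and limma with voom, and 2 had an unadjusted p under 0.05, against 4.84%. These were mRpS18C (-0.69, SE 0.21) and mRpL22 (-0.67, SE 0.23), both with an adjusted p of 0.972, followed by mRpL2 (-0.39, SE 0.18). mRpL22 was at 13.3, 12.2 and 11.5 CPM with DMSO and 11.1, 11.7 and 10.3 CPM with inhibitor in KO-labelled libraries, and at 12.9, 9.86 and 14.1 CPM and 14.3, 20.1 and 17.8 CPM in w1118. The highest values were those of w1118 with inhibitor, which overlapped no other group. The interaction was below 0 for 55 genes, against 49.5% of all genes, and above 0 for 18, against 50.5%. Its median was -0.10, against 0.0035 over all genes, and -0.01 without replicate 3 of w1118 with inhibitor. The summed level of the large subunit, mRpL53 included, over that of the small was 1.11 to 1.16 in KO-labelled libraries with inhibitor and 1.17 to 1.31 in the other 9. The nearest values were 1.162 in replicate 2 of the former, where mRpL53 was at 0, and 1.166 in replicate 1 of w1118 with DMSO. In that w1118 library mRpL53 added 8.72 CPM to the large subunit, and no difference between groups is read from this ratio.

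Genes that work beside these were read in the same comparison over both treatments. In it the median of all genes was -0.07, with 5.78% called lower and 5.33% higher. The mitochondrial ribosomal proteins S12 and S15 are encoded by tko and bonsai, which the symbol rule leaves out. tko was at 10.4 to 12.9 CPM in KO-labelled libraries and 11.3 to 15.9 CPM in w1118 (-0.18, SE 0.08, adjusted p = 0.207), and bonsai differed by -0.25 (SE 0.11, adjusted p = 0.179). None of 10 mitochondrial translation factors passed, with a median of -0.02. The RNAs of the mitochondrial ribosome, mt:lrRNA at 4.54 to 23.3 CPM and mt:srRNA at 2.21 to 6.74 CPM, did not pass either, and their levels are what remained after depletion of ribosomal RNA.

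Of 15 mitochondrial aminoacyl-tRNA synthetase genes, which charge the tRNAs, 3 were lower and 0 higher, with a median of 0.06. Of all genes tested, 5.78% were lower and 5.33% higher. GluRS-m was at 1.96 to 2.86 CPM in KO-labelled libraries and 4.00 to 5.15 CPM in w1118 (-0.91, SE 0.11, adjusted p = 0.000695), IleRS-m differed by -0.62 (adjusted p = 0.0412) and LeuRS-m by -0.33 (adjusted p = 0.0207). Of 14 genes for mitochondrial RNA synthesis, processing and stability, 2 were higher and 1 lower. The higher ones were Lrpprc2 (0.55, adjusted p = 0.00757) and bsf (0.29, adjusted p = 0.0466), which bind mitochondrial messages, and the lower one was rswl (-0.42, adjusted p = 0.0408). Of 38 rows of the mitochondrial genome, taken by symbols that begin with mt: and with mt:ori included, 16 were tested. Among these mt:ND2 was lower (-0.86, adjusted p = 0.0169), and the median was -0.31.

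Other large families of short genes were set beside them. Of 89 genes tested that were listed by symbol alone as cytoplasmic ribosomal proteins, 0 were higher and 2 lower. The 2 were RpS15Ab (-0.74) and RpL24-like (-0.56), while 87 of the 89 had an estimate below 0, with a median of -0.41. Of 78 nuclear genes for the respiratory chain and ATP synthase, 0 were higher and 1 lower (ND-51L1, -0.79), 61 had an estimate below 0 and the median was -0.17. Among the 73 mitochondrial ribosomal protein genes the corresponding figures were 0, 11 and 58, and -0.18. Of all genes tested, 5.33% were higher, 5.78% were lower and 60.1% had an estimate below 0, with a median of -0.07. These values are under TMM, and the families were not tested against each other or under other scalings.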

How the data were processed

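The authors deposited 1 table of estimated counts per feature (expected counts, not scaled to a common depth), and per the submitters' processing notes Trim Galore 0.6.7, STAR 2.7.9a, Salmon 1.10.1 and the build BDGP6 were used. All 24278 rows were read, and the 17895 FlyBase gene rows were kept. 17855 of them matched a symbol. Estimated counts were rounded to whole numbers. Genes passing filterByExpr (minimum count 10) were scaled with TMM factors, and edgeR 4.0.16 (R 4.3.3) fitted 1 model with a coefficient per group to the 12 libraries, with Benjamini-Hochberg adjustment over all genes tested. SEs were derived from the quasi-likelihood F statistic. Gene IDs gave positions, exon lengths and overlaps in the BDGP6.54 annotation of Ensembl.

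The genotype comparisons ask how heads labelled KO and w1118 differ, the others what the inhibitor does and whether that differs by genotype. Alternatives were DESeq2 1.42.0, limma 3.58.1 with voom and weights per sample, scaling by the median of ratios, no filter, a mean CPM of at least 1, only the groups compared, the replicate number as a block, each library left out in turn, and both libraries that stand apart left out. Scaling by library totals, alone and with those 2 libraries left out, was chosen later, with the data in view. The members and the gene and marker lists were chosen with earlier results of these data known. Named are members past the threshold in a comparison or, where none passed, the 3 with the smallest p, the 5 highest and 5 lowest per kilobase, the 3 with the most and the 3 with the least spread within groups, and the called genes of the other lists. The fit was tested on simulated counts. Labels number the libraries 1 to 3 in each group and each is a single head, but they do not say whether flies shared a culture, so p-values measure the spread between these libraries. Reads carry no molecular identifiers, and the floor of 3 counts covers counting error only.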

Additional observations from a re-analysis of the deposited data

How the results depend on the processing

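The number of mitochondrial ribosomal protein genes called depended on the tool and the scaling. Over both treatments, where 11 were called, all lower, DESeq2 called 17 (2 higher), limma with voom 30 (2 higher), scaling by the median of ratios 7 (1 higher), no filter 7 and a mean CPM of at least 1 called 12 (2 higher). Of all genes the same alternatives called 15.5%, 28.1%, 10.7%, 7.72% and 14.1%, against 11.1%. With inhibitor, where 5 were called, they called 9, 12, 3, 2 and 5, all lower, and of all genes 7.64%, 9.43%, 3.40%, 2.37% and 5.02%. With DMSO, where 1 was called, they called 1, 12, 0, 0 and 1, all lower, and of all genes 8.49%, 17.0%, 4.19%, 2.83% and 6.05%. Fitting only the groups compared called 1 with inhibitor and 0 with DMSO, of 3.82% and 2.58% of all genes. Leaving out both libraries that stand apart called 19 (2 higher), 9 (0 higher) and 5 (1 higher) over both treatments, with inhibitor and with DMSO, of 29.1%, 12.8% and 18.3% of all genes. Total-count scaling, an alternative chosen after the data were seen, called 1, 0 and 0, of 3.74%, 1.08% and 1.05%, and its median with inhibitor was -0.11. Combined with leaving out both libraries it called 15, 5 and 12, of which 12, 2 and 11 were higher, of 42.0%, 23.5% and 30.6% of all genes, with medians of 0.083, -0.012 and 0.14. The cause was not tested.

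In all, 4 estimates changed sign as called values. mRpL12 with DMSO was 1.05 without both libraries, and with total-count scaling as well it was 1.32 with DMSO and 0.82 over both treatments, where mRpL1 with DMSO was 0.30.

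Leaving out 1 library at a time gave 5 to 18 called genes over both treatments, 0 to 9 with inhibitor and 0 to 3 with DMSO. The medians then ran from -0.18 to -0.10, from -0.24 to -0.090 and from -0.16 to -0.034. No inhibitor or interaction call was gained under any of these alternatives.

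Same-numbered libraries deviated together in 3 of 18 pairs (correlations of -0.15 to 0.17, threshold 0.1). Among the 3 was the pair of libraries that stand apart (0.15). Such correlations, with 3 libraries a group, cannot decide whether the replicate numbers pair the samples. With the number as a block, 9 genes were called over both treatments, 1 with inhibitor and 1 with DMSO.

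Over all genes, 1572 were called over both treatments, 482 with inhibitor and 581 with DMSO. DESeq2 called 2192, 1081 and 1202, and limma with voom 3975, 1335 and 2406. Leaving out both libraries called 4161, 1824 and 2614, total-count scaling 529, 153 and 149, and the 2 combined 6008, 3362 and 4375. Only the groups compared gave 343 with DMSO. Without 1 library the counts ran from 936 to 3246, 250 to 1351 and 227 to 1629.

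With 3 heads a group, differences the size of the median SE of 0.16 within a treatment, and some well above it, could not be told from the spread. The smallest one called within a treatment was that of mRpL2 with inhibitor (-0.55, edgeR adjusted p = 0.0463). That of mRpL51 with inhibitor (-0.65, edgeR adjusted p = 0.0828) was not called. The lowest count outside mRpL53 was 33, and all exon bases of mRpL53 are shared with CG33155.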
